A study of Mus musculus with 4 samples.

Results

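The regions described here are the listed Zac1 peaks on chromosome 11 whose midpoint lay below 100 Mb (mm9). They were chosen by position alone, from the peak table of a ChIP-seq experiment, and number 323 of 4638 peaks (6.96%). A further 276 peaks lay on the same chromosome from 100 Mb on, and 4039 on other chromosomes. The choice was made with about 344 peaks in mind, and the table as used here gave 323. Ranks in the table run to 4688, so 50 ranks were not analysed here, and how many of those lay in this stretch is not known. Counts, runs and empty stretches below refer to the 4638 peaks used. The series has 2 libraries of chromatin precipitated with an in-house anti-Zac1 antibody (ChIP) and 2 libraries of input chromatin that saw no antibody. All 4 came from Neuro-2A, a mouse neuroblastoma line of Swiss Albino origin, transfected with the plasmid pRK5-Zac1 by Lipofectamine and fixed with paraformaldehyde 16 hours later. The protein was thus supplied by a plasmid in both groups, no untransfected cells were analysed here, and input is the sole background.

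Zac1 (Plagl1) binds DNA through zinc fingers and regulates transcription, and its own gene is imprinted, with expression from the paternal allele. It can halt the cell cycle and promote apoptosis, and it acts on other imprinted genes. The fingers are known to recognise GC-rich DNA, including the palindrome GGGGCCCC. Of the chromosome 11 genes that bear on this stretch, Grb10 is an imprinted gene for an adaptor protein that restrains insulin and growth factor signalling. It is expressed from the maternal allele in most tissues and from the paternal allele in neurons. Rara encodes retinoic acid receptor alpha, a nuclear receptor that switches genes in response to retinoic acid.

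Each peak carried 1 ChIP count and 1 input count, so no value has a spread between replicates, and no test between groups was possible. The 323 peaks held 25577 ChIP reads and 1235 input reads. Folds are ChIP over input reads of the peak region, with input multiplied by 0.6961, the constant recovered from the fold values that the authors deposited. Intervals are exact 95% limits of the read counts. They cover counting error only, and the peaks had been selected for enrichment on those reads too. Folds are therefore descriptions.

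Sequence under the peaks was not used here, because the genome table belongs to another assembly. To show the kind of DNA that lies at the genes named with these peaks, RefSeq promoters (250 bases before to 50 after a start) are given on GRCm38.p6, with capitals marking GGGGC or its reverse complement GCCCC. These positions cannot be set against the mm9 peaks, and whether a peak falls on any of these promoters was not tested. The most upstream of 4 Rara entries (chr11:98937446-98937745, plus strand) and both Grb10 entries (chr11:12037371-12037670 and chr11:12027922-12028221, minus strand) read as follows.
Rara, entry 1: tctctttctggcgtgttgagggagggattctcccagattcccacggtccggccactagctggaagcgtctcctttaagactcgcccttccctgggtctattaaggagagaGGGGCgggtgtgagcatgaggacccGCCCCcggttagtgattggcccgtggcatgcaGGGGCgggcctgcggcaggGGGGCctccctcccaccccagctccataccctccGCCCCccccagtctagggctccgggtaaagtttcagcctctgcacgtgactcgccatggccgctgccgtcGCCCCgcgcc
Grb10, entry 2: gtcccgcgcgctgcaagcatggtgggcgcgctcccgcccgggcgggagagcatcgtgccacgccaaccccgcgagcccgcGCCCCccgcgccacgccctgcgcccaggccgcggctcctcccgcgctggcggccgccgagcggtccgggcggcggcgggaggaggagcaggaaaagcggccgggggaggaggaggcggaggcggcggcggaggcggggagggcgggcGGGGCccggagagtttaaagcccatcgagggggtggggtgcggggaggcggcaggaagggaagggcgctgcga
Grb10, entry 1: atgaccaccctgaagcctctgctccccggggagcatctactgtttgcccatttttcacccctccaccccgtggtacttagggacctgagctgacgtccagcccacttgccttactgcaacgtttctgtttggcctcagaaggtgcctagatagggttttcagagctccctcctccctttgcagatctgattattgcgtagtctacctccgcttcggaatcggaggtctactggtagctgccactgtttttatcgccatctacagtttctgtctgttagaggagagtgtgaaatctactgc
The Rara entry shown held 6 matches to the core on both strands together, the first Grb10 sequence shown held 2 and the second held 0. Their GC contents were 66.3%, 80.0% and 52.3%, beside a median of 52.7% (interquartile range 45.7% to 61.7%) over 32851 promoters. The Rara entries not shown held 8, 1 and 5 matches, with GC contents of 68.3%, 59.3% and 58.3%. The core occurred in 60.8% of all promoters of this length and in 67.8% of those on chromosome 11, so a match says little. The full palindrome GGGGCCCC, which contains the core on both strands, occurred in 1.08% of all promoters and in none of the 3 shown.

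Read counts of the whole peak region put enrichment of the chromosome 11 peaks below 100 Mb slightly above that of the other peaks. By the authors' deposited log2 fold of the best window they were not higher, with a median of 4.95 in both. Their median rank was poorer, at 2459 against 2328. Pooled over the 323 peaks, ChIP reads exceeded scaled input 29.8-fold (28.1 to 31.5), against 26.9-fold (25.4 to 28.4) on distal chromosome 11 and 27.3-fold (26.9 to 27.7) over all 4315 other peaks. Relative to all other peaks this was a ratio of 1.09 (Wald interval on the read sums 1.03 to 1.16). A fold whose lower limit exceeded 10 was found for 196 of the 323 peaks (60.7%), beside 58.3% of the whole list. The limit exceeded 5 in 314 (97.2%), beside 97.6% of the list. Both shares lie near the background and are no result about these peaks. Where input reads were present (300 peaks), the fold ran from 8.30 to 139.3, with a median of 30.5, against a median of 28.7 over the other peaks with input reads. The remaining 23 peaks (7.12%, against 5.08% of the other peaks) had no input read and 36 to 83 ChIP reads. The exact lower limits of their folds ran from 13.3 to 31.6.

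Reads per peak were somewhat fewer than elsewhere, of both kinds. ChIP reads had a median of 73 per peak (quartiles 59 and 91), against 78 (61 to 101) on distal chromosome 11 and 75 (60 to 98) in all other peaks. Input reads per peak averaged 3.82 (95% Poisson interval 3.61 to 4.04), against 4.63 (4.38 to 4.89) on distal chromosome 11 and 4.42 (4.36 to 4.49) elsewhere in the list. The ratio of input reads per peak was 0.864 against all other peaks (0.815 to 0.916) and 0.826 against distal chromosome 11 (0.764 to 0.894). The matching ratio of ChIP reads per peak was 0.942 (0.930 to 0.954) against all other peaks. These intervals treat reads as independent and peaks as fixed, so they do not show how far the means vary between stretches of the genome. Counts were not scaled to peak length. The upper quartile of length was 120.5 bp here, 144.5 bp on distal chromosome 11 and 131 bp in all other peaks. The part of peak length in these ratios was not tested. Within the 323 peaks, ChIP reads and input reads of a peak went together loosely (Spearman rho 0.38, across peaks that share both sets of libraries).

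**Figure D1:**
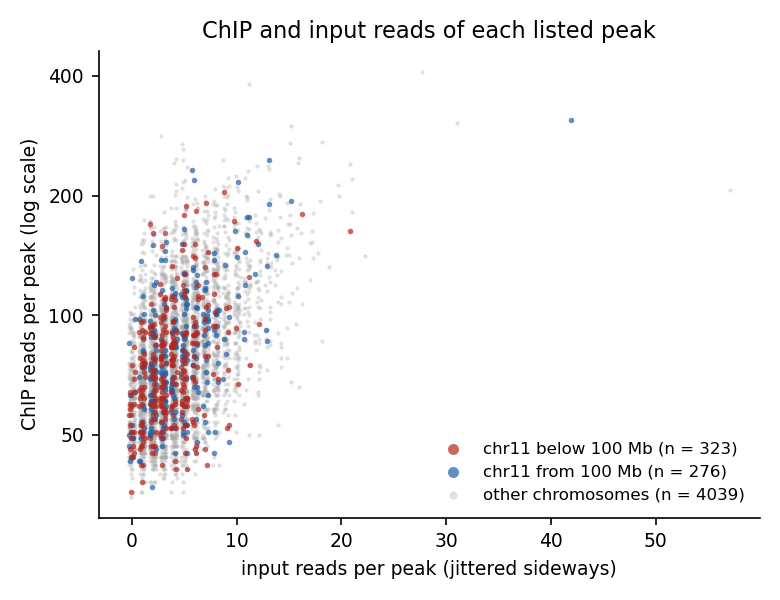
ChIP reads (log scale) against input reads of each listed peak, with small sideways jitter, for chromosome 11 below 100 Mb (red, 323 peaks), chromosome 11 from 100 Mb (blue, 276) and other chromosomes (grey, 4039). The red points lie within the grey cloud, between 36 and 204 ChIP reads and between 0 and 21 input reads.

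In shape the peaks resembled the rest of the list. The forward strand carried 49.9% of their ChIP reads and 51.7% of their input reads. The median deposited length was 81 bp, against 83 bp in the other peaks, and the reverse-strand summit lay a median of 67 bp beyond the forward one, against 68 bp. In 35 peaks (10.8%, against 12.4% of the others) the summits were inverted or coincided. Those 35 were long, with a median of 370 bp and 83 ChIP reads, against 76 bp and 71.5 reads in the 288 with summits in order. In the weaker strand's busiest window 87 peaks (26.9%) had exactly 16 ChIP reads, the lowest value in the list, against 18.8% on distal chromosome 11 and 21.7% in all other peaks. At the other end, 9 peaks (2.79%) had 28 or more, against 14 (5.07%) on distal chromosome 11 and 202 (4.68%) of all other peaks. In the authors' deposited table the log2 fold of the best window ran from 3.39 to 5.98 with a median of 4.95, the same median as in the other peaks.

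Peaks were crowded into a few stretches of the 100 Mb. The window from 50 to 60 Mb held 76, that from 90 to 100 Mb held 69 and the first 10 Mb held 57, together 202 (62.5%). The window from 60 to 70 Mb held 32. Those from 30 to 40, 70 to 80 and 80 to 90 Mb held 20, 21 and 22, those from 10 to 20 and 40 to 50 Mb held 12 each, and that from 20 to 30 Mb held 2. The mean was 3.23 peaks per Mb, against 13.1 per Mb between 100 Mb and the last peak of the chromosome, which ended at 121038369. Of the 1 Mb windows, 50 held a peak and 50 held none. Windows with a peak held a median of 5, against 12 on distal chromosome 11 and 2 on other chromosomes. The 10 windows with 10 or more peaks took in 167 (51.7%).

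The densest 1 Mb window, from 98 to 99 Mb, held 27 peaks at 13 sites, counting peaks within 10 kb as 1 site. Next came 59 to 60 Mb with 23 peaks, 97 to 98 Mb with 20, 5 to 6 Mb with 19, and 4 to 5 and 60 to 61 Mb with 16 each. Over the whole list 27 windows of 1 Mb held more than 27 peaks, 4 of them on distal chromosome 11, and the fullest held 82. Counted as sites, the leading window below 100 Mb was 97 to 98 Mb, where 20 peaks made 17 sites. The first 10 Mb were filled between 3 and 7 Mb alone, which held all 57 peaks of that window. The last window was filled from 94 Mb on, and 1 of its 69 peaks lay beyond 99 Mb.

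Between these clusters lay long stretches without a listed peak. The longest, 7.68 Mb between midpoints, ran from the peak at 24028608 to 24028659 to the peak at 31703449 to 31703876. A stretch of 7.47 Mb followed the peak ending at 35564288, and one of 6.02 Mb followed the peak ending at 88088168. The first member was at 3103028 to 3103056 (62 ChIP reads, 1 input read) and the last at 99009404 to 99009499 (99 and 3). The member before it, at 98993588 to 98993616, had 69 ChIP and 8 input reads. Beyond the 100 Mb limit the next peaks were at 100132540 to 100132615 (88 and 2 reads) and 100209911 to 100210002 (82 and 1), so the limit fell in a stretch without listed peaks.

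Input reads per peak varied between windows by more than counting error. They were highest from 30 to 40 Mb, at 5.25 (4.29 to 6.36), and lowest among windows with more than 2 peaks from 70 to 80 Mb, at 2.05 (1.48 to 2.76). The 3 crowded windows stood at 3.82 (3.33 to 4.37) in the first 10 Mb, 4.20 (3.75 to 4.68) from 50 to 60 Mb and 4.46 (3.98 to 4.99) from 90 to 100 Mb. The pooled fold divides by these same input reads, so it is no separate observation. It ran the other way, at 21.1 (17.3 to 26.0) from 30 to 40 Mb and 47.6 (35.2 to 66.1) from 70 to 80 Mb. Median ChIP reads per peak moved less, from 58.5 to 77. Over the 10 windows, peak number went with input reads per peak (Spearman rho 0.56) and with median ChIP reads (rho 0.78). Over the 27 windows of 1 Mb with 5 or more members, the values were 0.58 and 0.30. All windows share the same libraries and 1 of the 10 Mb windows rests on 2 peaks, so this is a description. The part of local DNA amount in these values was not tested.

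**Figure D2:**
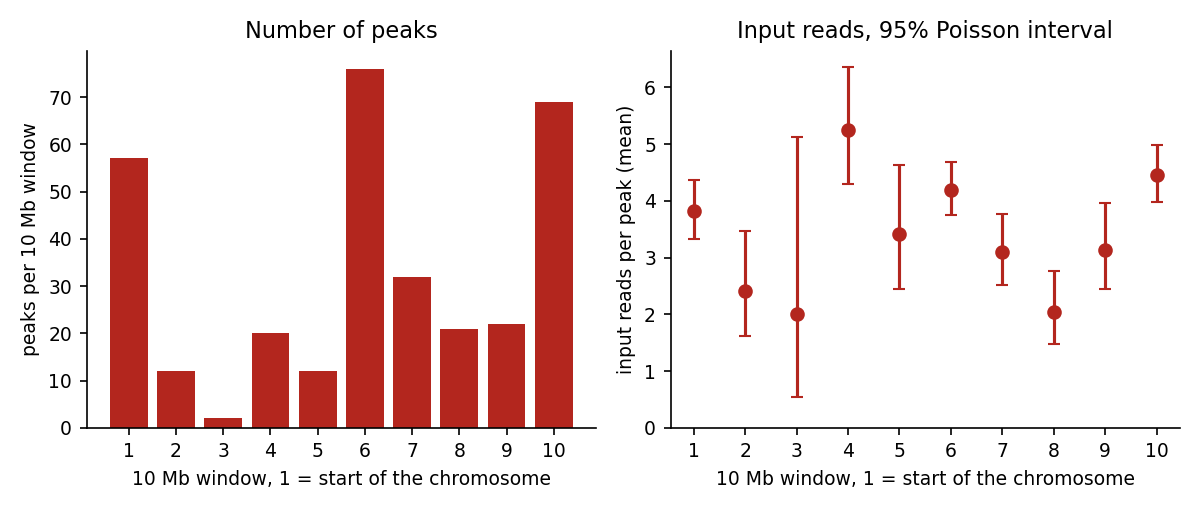
Left, listed peaks in each of the 10 windows of 10 Mb below 100 Mb on chromosome 11, and right, mean input reads per peak in the same windows with the 95% Poisson interval of the read count. Windows 1, 6 and 10 stand out with 57, 76 and 69 peaks, while input reads per peak run from 2.00 to 5.25 and are highest in window 4.

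Short-range clustering was at the level of the list. Another peak lay within 10 kb of 127 of the 323 peaks (39.3%), against 50.4% on distal chromosome 11 and 41.3% in all other peaks. The median distance to the nearest peak was 14.4 kb, against 9.85 kb on distal chromosome 11 and 14.9 kb in all other peaks. Joining neighbours separated by 10 kb or less turned the 323 peaks into 246 sites. Of these, 196 were single peaks, 36 were pairs, 7 were runs of 3 and 5 were runs of 4. The last 2 were a run of 6 and a run of 8.

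**Figure D3:**
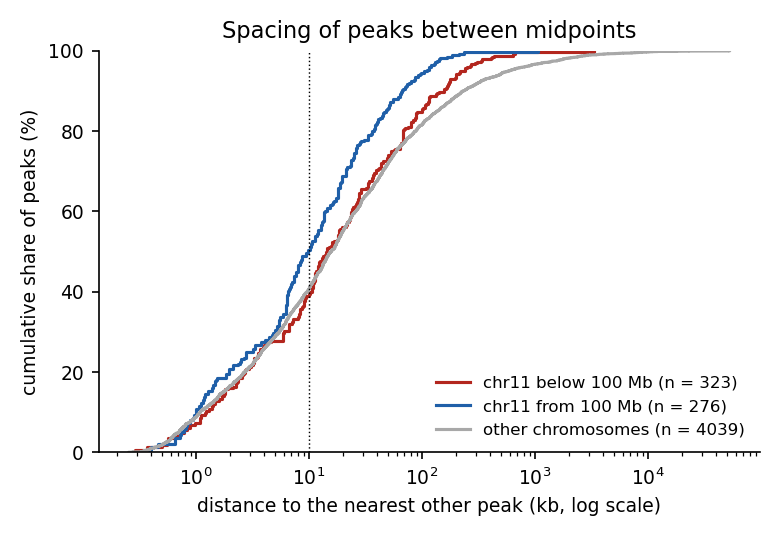
Cumulative share of peaks against the distance to the nearest other listed peak on the same chromosome (log scale, between midpoints), with 10 kb marked by a dotted line. At 10 kb the curve for chromosome 11 below 100 Mb (red) stands at 39.3%, close to the other chromosomes (grey), and that for chromosome 11 from 100 Mb (blue) at 50.4%.

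Peaks in longer runs held more reads of both kinds. Single peaks had a median of 69 ChIP reads and a mean of 3.50 input reads (3.24 to 3.77), and paired peaks had 75 and 3.21 (2.81 to 3.65). In runs of 3 the values were 91 and 5.10 (4.18 to 6.16), and in the 7 runs of 4 or more they were 92.5 and 6.21 (5.40 to 7.10). Without the run of 8, the 26 peaks of the other runs of 4 or more still averaged 5.85 input reads (4.95 to 6.85). The pooled fold was 23.1 (20.1 to 26.6) in runs of 4 or more, against 35.4 (31.0 to 40.6) in pairs and 30.4 (28.1 to 32.8) in single peaks. Peaks without any input read were 18 of 196 single peaks and 5 of 72 paired peaks. In runs of 3 they were 0 of 21, and in runs of 4 or more 0 of 34. The share was 7.12% over all peaks of the stretch, so few would fall in these longer runs at that share, and the contrast is weak. The part of local DNA amount in these run values was not tested either.

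The run of 8 peaks spanned 26.1 kb from 98786764 to 98812861 and is the one placed around Rara when the regions were chosen. Gene positions on mm9 were not used here, so the distance of each peak to Rara was not measured. In the RefSeq gene order on GRCm38.p6, named protein-coding genes before Rara are Rapgefl1, Wipf2 and Cdc6, a factor that licenses replication origins. After it come Gjd3, a gap junction protein, Top2a, a DNA topoisomerase abundant in dividing cells, and Igfbp4, which binds insulin-like growth factors. The 8 peaks together held 841 ChIP and 59 input reads, a 20.5-fold excess (15.7 to 27.1).

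One peak in the middle of the run carried the best rank of all 323. At 98799053 to 98799106 (54 bp), it had 170 ChIP reads, 83 forward and 87 reverse, and 2 input reads, 1 on each strand. Its fold was 122.1 (33.3 to 1016), with the upper limit set by 2 reads. In the authors' deposited table it had rank 23, a log2 fold of 5.98 and a strand balance of 1, the highest value possible. The 3 peaks on its lower side came with many more input reads. At 98790965 to 98790994, 8.10 kb away, 163 ChIP reads faced 21 input reads, the most of any of the 323 peaks, and the fold was 11.2 (7.06 to 18.5). Its interval lay wholly below that of the best ranked peak, although the ChIP counts of 163 and 170 were alike. In the authors' deposited table this peak nonetheless had a log2 fold of 5.32, a value of 1 window, whereas the counts are those of the whole region. The peak at 98792150 to 98792782 (633 bp, inverted summits) had 148 ChIP and 10 input reads, and the outermost, at 98786764 to 98786908, had 102 and 8.

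On the upper side of the best ranked peak the counts were smaller. At 98803646 to 98803724 there were 82 ChIP and 3 input reads, a 39.3-fold excess (13.0 to 194.3), and at 98806342 to 98806428 there were 55 and 6. The last pair, 0.883 kb apart between midpoints, had 80 ChIP and 5 input reads at 98811875 to 98811981 and 41 and 4 at 98812762 to 98812861. Without the best ranked peak, which held 20.2% of the ChIP reads, the other 7 stood at 16.9-fold (12.9 to 22.6).

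A run of 4 peaks followed after a gap of 12.1 kb, just over the joining distance. It spanned 98824977 to 98836124 and held 387 ChIP and 26 input reads (21.4-fold, 14.4 to 33.2). Its peaks had 127, 73, 46 and 141 ChIP reads and 8, 5, 7 and 6 input reads, from the lowest to the highest position. The 12 peaks of both runs covered 49.4 kb with 7.08 input reads per peak, against 3.82 over all 323. The single peak with 21 input reads held 24.7% of the input reads of these 12. On the other side the nearest peak lay 87.9 kb below the run, at 98698821 to 98698870. With 204 ChIP reads against 9 input reads (32.6-fold, 16.8 to 72.2), it had the largest ChIP count of the 323.

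**Figure D4:**
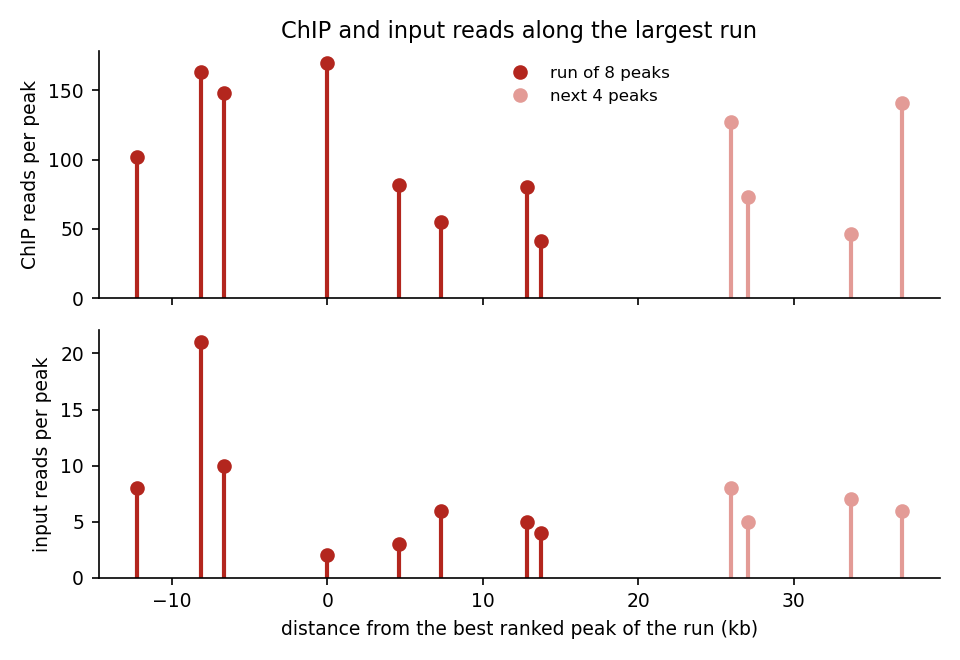
ChIP reads (top) and input reads (bottom) of the 8 peaks of the largest run (dark) and of the next 4 peaks (light), against the distance in kb from the best ranked peak of the run. The best ranked peak has 170 ChIP reads with 2 input reads, and the peak 8.10 kb to its left has 163 with 21.

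The run of 6 lay at 6495816 to 6505847, within 10.0 kb. Its ChIP reads summed to 541 and its input reads to 30 (25.9-fold, 17.9 to 38.8). From the lowest to the highest position its peaks had 94, 59, 111, 62, 132 and 83 ChIP reads and 2, 3, 5, 5, 7 and 8 input reads. The best ranked of them, 549 in the authors' deposited table, was the fifth, at 6502725 to 6502807. Of the 5 runs of 4, that at 59989786 to 60003543 held the most reads, 591 ChIP and 30 input (28.3-fold, 19.6 to 42.3). Its peaks at 60003461 to 60003543 and 60001199 to 60001305 had 192 and 183 ChIP reads, the second and the fourth highest of the 323, with 7 and 6 input reads. The remaining runs of 4 began at 5893435 (335 ChIP and 20 input reads), 35423245 (324 and 22) and 59920510 (370 and 24).

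The interval named for the imprinted Grb10 locus, from 11.8 to 11.95 Mb, held 2 peaks with ChIP read counts near the median. At 11839632 to 11839973 (342 bp, inverted summits), 68 ChIP reads faced 4 input reads, a 24.4-fold excess (9.11 to 92.2). At 11848539 to 11848568, 84 ChIP reads faced 4 input reads, a 30.2-fold excess (11.4 to 113.3). They lay 8.75 kb apart, had 16 ChIP reads in the weaker strand's busiest window, the minimum of the list, and had ranks 3408 and 2140 in the authors' deposited table. Reads of the whole region were uneven between strands in opposite ways. The first had 41 forward and 27 reverse, and the second 32 forward and 52 reverse. The authors' deposited strand balance was 0.611 for the first and 0.944 for the second, beside a median of 0.85 over the 323 peaks. Both counts of ChIP reads were near the median of 73, and together the fold was 27.3 (13.5 to 64.4), beside 29.8 over all 323 peaks.

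The 1 Mb window that holds this interval, from 11 to 12 Mb, had 5 peaks, the median of windows with a peak below 100 Mb. On other chromosomes that median was 2. Below the first of these 5 no peak was listed for 4.96 Mb. Within 1 Mb on either side 5 peaks were listed in all, and the 3 outside the interval were chosen for mention after their values had been seen. They lay at 11464306 to 11464436 (69 ChIP reads and 0 input reads, lower limit of the fold 26.2), 11735572 to 11735683 (60 and 0, lower limit 22.7) and 11778967 to 11778995 (99 and 6). On the far side no peak was listed for 4.56 Mb, up to 16407825 to 16408101 (58 ChIP and 0 input reads). In the GRCm38.p6 gene order the genes before Grb10 are Ikzf1, a lymphoid transcription factor, Fignl1 and Ddc, the decarboxylase that makes dopamine and serotonin, and the gene after it is Cobl, an actin nucleator. Which of these the peaks lie in or near was not tested.

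Of the 10 best ranked of the 323 peaks, 9 lay in the 3 crowded windows, which held 62.5% of all 323. Of the 9, 4 lay from 90 to 100 Mb, 3 in the first 10 Mb and 2 from 50 to 60 Mb. After the peak at 98799053, the next was at 5878361 to 5878389, where 161 ChIP reads faced 2 input reads (115.6-fold, 31.5 to 963.1). Behind it came 53333147 to 53333207, with 92 ChIP reads and 1 input read. The fourth, 57746698 to 57746763, held 188 and 5 (54.0-fold, 22.7 to 168.3) and was also the third by ChIP reads. Those at 96747418 to 96747446, 98602043 to 98602072 and 33119079 to 33119108 had 112, 88 and 84 ChIP reads with 6, 4 and 2 input reads. The last 3, at 3394687 to 3394737, 6305136 to 6305449 and 97426092 to 97426121, had 113, 85 and 110 with 5, 4 and 3. Of the 100 best ranked peaks of the list, 3 were among the 323 (0.929% of them, against 2.25% of the other peaks), and of the 1000 best ranked 59 were (18.3% against 21.8%).

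The extremes of the fold rested on few reads. The 3 highest, at 95703317 to 95703789 (97 ChIP reads), 32913284 to 32913391 (96) and 53333147 to 53333207 (92), each had 1 input read, and their lower limits were 24.4, 24.2 and 23.1. The 3 lowest were at 52146559 to 52146643, where 52 ChIP reads faced 9 input reads (8.30-fold, 4.05 to 19.2), at 57829736 to 57829765, with 53 and 9, and at 31910366 to 31910579, with 42 and 7. After the peak with 21 input reads, the most were 16, at 98988050 to 98988236 with 180 ChIP reads (16.2-fold, 9.68 to 28.9), and 12, at 5028911 to 5029032 with 154 (18.4-fold, 10.3 to 36.5), the better ranked of 2 peaks with 12.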

How the data were processed

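The 2 ChIP and 2 input libraries are represented by 1 peak table with the column names of CisGenome, per the file headers, and build mm9, per the submitters' processing notes. Aligner, filters, thresholds and pooling of replicates are not named there or in the labels. Per the file headers, the authors deposited whole-number read counts per peak region and per busiest window, by strand, with the log2 fold of the best window, a false discovery rate (a p-value-like quantity, 0 to 6 decimals in 322 of the 323 peaks), the strand balance as a ratio and a rank, used here as a score. The deposited log2 folds were matched in 100.0% of 4638 peaks by whole counts with a pseudocount of 1 and input multiplied by 0.6961 (84.1% without scaling, tolerance 2e-06). Only 738 of these peaks inform the constant, because the others are matched with an input count of 0 whatever the constant. Depth is known only within peaks.

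Exact intervals (Clopper-Pearson on ChIP reads out of ChIP plus input reads for folds, Poisson for means) were computed with scipy 1.17.1 and checked on simulated data. No test was made, since peaks are not replicates. Peaks named were the 10 best ranked, the 5 with most ChIP reads, extremes of input and fold, both interval loci, runs of 5 or more, and those nearest the limits. The runs of 4 were added after their values were seen. The members and lists were chosen with earlier results of these data known. RefSeq tables on GRCm38.p6 gave gene order and promoters only. Alternatives tried were input scaling, window counts, rank and read thresholds, joining and neighbour distances and window placement.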

Additional observations from a re-analysis of the deposited data

How the results depend on the processing

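The pooled fold of 29.8 became 20.7 with unscaled input and 22.6 with busiest-window counts. It was 38.9 among peaks of the better ranked 2319 and 40.0 among the 1000 best ranked peaks, where the rank itself follows the deposited fold. Input reads per peak, 3.82 as reported, were 3.49 with the best ranked peak kept per group within 10 kb. Because rank follows the deposited fold, that choice can itself favour peaks with fewer input reads. The 127 peaks with a neighbour within 10 kb became 24 at 1 kb and 274 at 100 kb. The 2 runs of 5 or more became 1 when joined at 5 kb, 8 at 20 kb and 16 at 50 kb. The densest 1 Mb window, with 27 peaks, stood at 17 sites when peaks within 10 kb were counted once, and that count comes from 97 to 98 Mb. With shifted windows, the densest 1 Mb window began at 98.5 Mb and held 23 peaks. The densest shifted 10 Mb window held 63 peaks, against 76 as reported. Median ChIP reads per peak, 73 as reported, were 88 among peaks with at least 20 reads on the weaker strand. The number of members, 323, was the same by peak start or end. Leaving out the run of 8, an alternative chosen after seeing the data, gave a fold of 30.2 and 3.73 input reads per peak. Counting intervals of single peaks are too wide for unscaled input to leave them. With busiest-window counts the peak at 98824977 left its interval, at 10.3-fold against 22.8-fold, and the cause was not tested. No paired analysis was possible because each peak has a single ChIP count and a single input count, which also kept any replicate from being left out. Sites with under 16 reads on a strand were not analysed here.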
